A study of Mus musculus with 10 samples.

Results

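The genes described here mark the blood vessels of the brain: 28 endothelial genes, from Cldn5 to Robo4, and 10 genes of mural cells, from Pdgfrb to Anpep, out of 30935 genes in the table of the series. They were listed by name as markers and not by measured values, each symbol was matched to its Entrez identifier, and all 38 members were found. The RNA was taken from whole cerebral cortex on postnatal day 8 in mice. 5 libraries came from Rbfox1 ΔHAR.505/ΔHAR.505 mice, which lack an element of the Rbfox1 locus on both chromosomes and are called knockout here (replicates 1, 3, 5, 6 and 8), and 5 came from Rbfox1 +/+ mice (wild type, replicates 2, 4, 5, 6 and 7). The labels name no other allele or agent, and whether the deletion comes from 1 founder line is not given in the sources used here. The comparison asks whether cortical vessel genes are expressed at other levels without the element.

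Endothelial cells form the wall of every brain vessel. In the brain they are sealed by tight junctions and carry transporters for glucose, lipids and lactate and pumps that return foreign compounds to the blood, which together make up the blood-brain barrier. Mural cells lie on the outer side of the endothelium, as pericytes on capillaries and as contractile smooth muscle cells on arteries and veins, and the endothelium recruits them by secreting PDGF-B, which binds the receptor PDGFR-beta on pericytes. In mice the cortical vessel network still grows in the days after birth.

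Vessel genes stood at nearly the same level in both genotypes, and 0 of the 38 members passed the test of knockout against wild type. The test was edgeR's quasi-likelihood F test over 15488 genes with Benjamini-Hochberg adjustment and a threshold of 0.05. Over all genes tested it called 59, or 0.381%. Of the members, 5 had an unadjusted p under 0.05, 3 higher in knockout (Eng, Abcb1a and Rgs5) and 2 lower (Foxq1 and Notch3), against 8.71% of all genes tested, of which 4.19% were higher and 4.52% lower, and DESeq2 called 0 members as well. The lowest adjusted p among members was 0.242, of Abcb1a. The median log2 fold change was 0.020 over the 28 endothelial members and -0.028 over the 10 mural members, beside -0.0021 over all genes tested. The endothelial median turned to -0.054 without knockout replicates 3, 5 and 6 and to -0.066 with the choroid plexus level as a covariate, and the mural median moved to -0.25 with that covariate. That level did not overlap between the genotypes, at 0.516 to 2.51 mean log2 CPM in knockout and 2.76 to 2.97 in wild type. Fits with this covariate therefore separate genotype poorly from choroid plexus level and rest largely on the spread among knockout libraries. All 38 members passed the filter on low counts, and in 0 of them did the CPM ranges of the genotypes fail to overlap, against 1.82% of all genes tested (0.923% higher and 0.897% lower in knockout). A log2 fold change below 0 was found for 17 members, against 50.9% of all genes tested. CPM, the unit of the levels given here, divides a gene's counts by the scaled total of its library.

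The precision of the folds differed with the level of the gene. The 95% interval of the fold, knockout over wild type, lay between 0.8 and 1.25 for 19 members, 14 endothelial and 5 mural. For 36 members it lay between 0.5 and 2, so average changes of 2-fold or more lie outside it. The other two were Ly6a, with an interval from 0.846 to 2.05, and Acta2, with one from 0.415 to 1.41. Counts of members per library ran from 20 to 3286, and the intervals reflect the spread between libraries as well as this depth.

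**Figure D1:**
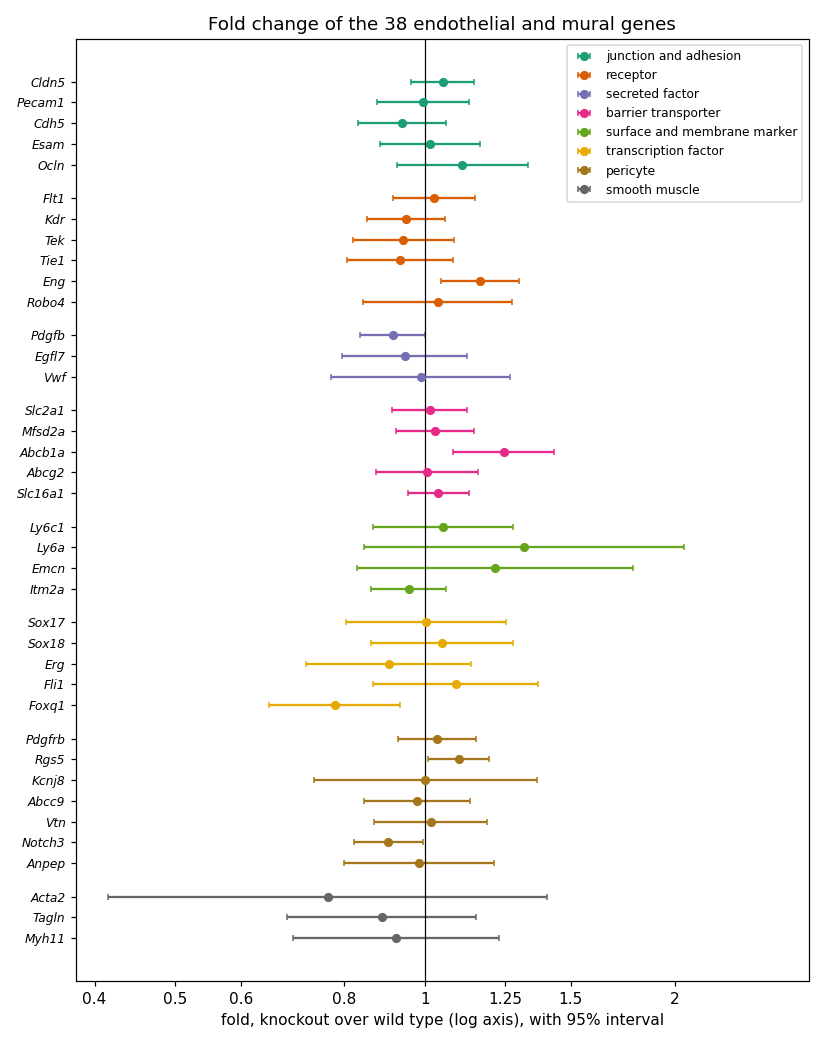
Fold of each of the 38 members, knockout over wild type, on a log axis, with its 95% interval from edgeR (5 libraries per genotype), grouped by role. The intervals of Eng, Abcb1a and Rgs5 lie above 1 and those of Foxq1 and Notch3 below 1 before adjustment, and those of the other members include 1.

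The tissue label was checked first. Cortical neuron genes were abundant, with the vesicular glutamate transporter gene Slc17a7 at 988 CPM in knockout and 926 CPM in wild type. Cldn5, Pecam1 and Cdh5 were present in every library, as were Pdgfrb, Rgs5 and Acta2. Library totals ran from 16479594 to 18166712 counts in knockout and from 17251793 to 22391943 in wild type. Genes of neighbouring tissue differed between the genotypes. Of the choroid plexus genes Clic6 (1.19 CPM in knockout and 4.24 CPM in wild type, edgeR adjusted p = 0.00989) and Tmem72 (1.75 and 5.30 CPM, adjusted p = 0.0193) fell, and of the striatal genes Six3 (0.711 and 4.66 CPM, adjusted p = 0.000625) and Penk (12.4 and 25.4 CPM, adjusted p = 0.00989). All 4 fell short of the threshold without knockout replicates 3, 5 and 6, where 2 knockout libraries are left, at log2 fold changes of -1.06 for Clic6, -0.94 for Tmem72, -1.97 for Six3 and -1.04 for Penk. With the choroid covariate they were -0.32, -0.47, -1.74 and -0.96, again short of the threshold. That covariate is the mean log2 CPM of the choroid plexus genes, Clic6 and Tmem72 among them, so it shrinks their fold changes by construction. Knockout replicates 3, 5 and 6 hold the least choroid plexus RNA, so leaving them out also shrinks the fall of choroid plexus genes by construction. Tmem72 and Penk also lost the call when knockout replicate 3 alone was left out, and Tmem72 without wild-type replicate 4 or 5. The main log2 fold change was below 0 for 9 of the 10 listed striatal genes and above 0 for 1, at 0.34. It was below 0 for all 10 listed choroid plexus genes, against 50.9% of all genes tested.

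Vessel content per library was described by the summed CPM of the members. The endothelial members summed to 707, 771, 787, 768 and 736 CPM in knockout replicates 1, 3, 5, 6 and 8, and to 727, 703, 772, 756 and 773 CPM in wild-type replicates 2, 4, 5, 6 and 7. Their means were 754 ± 32.3 CPM in knockout and 746 ± 30.5 CPM in wild type (SD, n = 5 each), a ratio of 1.01. The ranges of the genotypes overlapped almost fully, and the highest of the 10 libraries exceeded the lowest by a factor of 1.12. Without knockout replicates 3, 5 and 6, which hold the least choroid plexus RNA, the ratio was 0.967. The same libraries held the highest endothelial sums in knockout, so leaving them out lowers the ratio by construction. Because whole cortex was sequenced, fewer cells of a type and less RNA per cell cannot be told apart.

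The mural members summed to 307, 349, 370, 326 and 321 CPM in knockout and 311, 326, 313, 345 and 335 CPM in wild type, in the same order of replicates. The means were 335 ± 24.95 CPM in knockout and 326 ± 14.7 CPM in wild type (SD, n = 5 each), a ratio of 1.03. Knockout replicates 5 and 1 were the highest and the lowest of all 10 libraries. When the mean log2 CPM of the members was used, so that Rgs5 and Vtn no longer set the value, the ratio of mural content turned to 0.945. That turn lay mostly in the smooth muscle genes, of low counts, at a mean log2 CPM of 2.10 in knockout and 2.36 in wild type. The pericyte genes stood level, at 4.72 in knockout and 4.73 in wild type. The mural sum divided by the endothelial sum was 0.444 ± 0.0181 in knockout and 0.437 ± 0.0236 in wild type (SD, n = 5 each), so that the sums of these members stood in almost the same proportion. Genes of high CPM weigh most in this ratio, such as Rgs5 and Vtn in the mural sum and Slc16a1 in the endothelial sum.

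**Figure D2:**
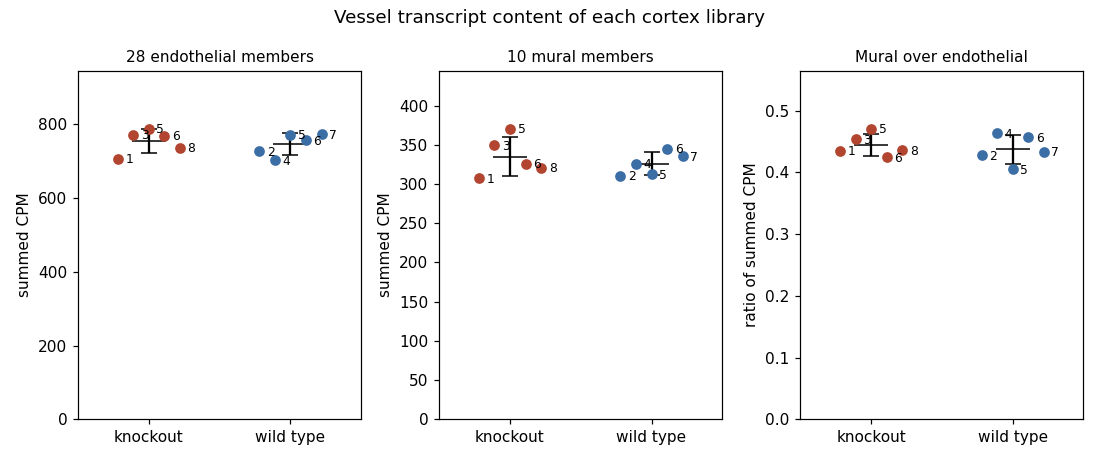
Summed CPM of the 28 endothelial members (left) and the 10 mural members (middle), and their ratio (right), in each library. Points are libraries with their replicate number, bars are the mean and SD of the genotype, and the axes start at 0. The endothelial sums lie between 707 and 787 CPM in knockout and between 703 and 773 CPM in wild type.

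Junction and adhesion genes did not differ beyond the spread of the libraries, and 0 of the 5 passed the test. Cldn5 (Entrez 12741), which encodes the main claudin of brain endothelial tight junctions, was the highest of the members per kilobase of exon, with 49.3 CPM per kb in knockout and 47.0 CPM per kb in wild type. Its CPM was 65.9, 74.0, 66.8, 69.9 and 72.7 in knockout and 73.4, 63.1, 71.4, 60.2 and 64.7 in wild type, with fully mixed genotypes and a fold of 1.05 (95% interval 0.963 to 1.15). Occludin (Ocln), another tight junction protein, stood at 9.93, 11.3, 12.7, 11.9 and 8.38 CPM in knockout against 8.49, 10.4, 9.83, 9.97 and 10.1 CPM in wild type. Its fold of 1.11 (0.925 to 1.33) rests on knockout replicates 3, 5 and 6, which lay above every wild-type library, while knockout replicate 8 lay below all of them. Its log2 fold change was 0.15, and it turned to -0.091 without those 3 libraries, its highest in knockout, and to -0.14 with the choroid plexus level as a covariate. Cdh5, the gene of the endothelial cadherin of adherens junctions, had a fold of 0.939 (0.832 to 1.06), Pecam1, which encodes an adhesion molecule between endothelial cells, one of 0.994 (0.875 to 1.13), and Esam, which encodes an adhesion molecule of the immunoglobulin superfamily, one of 1.01 (0.883 to 1.17).

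Among the receptor genes Eng differed most and the VEGF and angiopoietin receptor genes little. Endoglin (Eng, Entrez 13805) is a co-receptor for TGF-beta and BMP ligands on endothelial cells. It stood at 38.6, 32.2, 36.5, 35.7 and 37.7 CPM in knockout and 32.8, 29.8, 31.9, 33.7 and 26.9 CPM in wild type. The values of 4 knockout libraries lay above every wild-type library, and knockout replicate 3 lay inside the wild-type range. The log2 fold change was 0.22 (SE 0.077) and did not pass over all genes tested by edgeR (adjusted p = 0.317). The unadjusted p of Eng stayed under 0.05 in every alternative fit but that with a replicate block, and Eng passed after adjustment in 0 of them. The exact two-sided permutation test of log2 CPM over all 252 assignments gave p = 0.0238, where 0.00794 is the smallest p it can give. This test was run for the 5 members with a small edgeR p on the same values, so it adds no independent support. Flt1 and Kdr, which encode the VEGF receptors 1 and 2, had log2 fold changes of 0.036 (SE 0.081) and -0.075 (SE 0.076). Tek, the gene of the angiopoietin receptor, and Tie1, that of its relative, had values of -0.086 and -0.099, and Robo4, which encodes an endothelial Robo receptor, 0.051. Of the 6 receptor genes, 3 had a log2 fold change above 0 and 3 below.

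The region before the Eng start is shown because endothelial promoters are known for binding sites of ETS factors, the family of the members Erg and Fli1. Capitals mark GGAAGT or its reverse complement, searched on both strands in the 250 bases before the annotated start (RefSeq, GRCm38.p6). Eng holds 1 match (chr2:32646345-32646594, plus strand).
Eng: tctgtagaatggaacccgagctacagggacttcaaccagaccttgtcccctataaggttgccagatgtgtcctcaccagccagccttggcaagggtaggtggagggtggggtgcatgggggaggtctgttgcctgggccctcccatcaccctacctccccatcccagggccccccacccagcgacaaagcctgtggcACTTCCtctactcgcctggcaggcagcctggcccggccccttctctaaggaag
RefSeq windows were at hand for 25 of the 38 members. Of their 33 windows, 10 (30.3%) held this motif, against 19.7% of the 32851 windows of all genes. A match is a description of letters and was not tied to any measurement here.

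The secreted factor genes were close between the genotypes, and 0 of 3 passed. Pdgfb, the ligand that recruits pericytes, is also made by neurons. It stood at 39.0, 41.6, 40.1, 43.6 and 39.2 CPM in knockout and at 45.4, 43.3, 46.4, 42.7 and 44.7 CPM in wild type. All knockout libraries but replicate 6 lay below every wild-type library, with a log2 fold change of -0.13 (SE 0.064, edgeR adjusted p = 0.581). Egfl7, which encodes a secreted protein of the vessel matrix, had a fold of 0.945 (0.794 to 1.12), with wild-type replicate 5 the highest at 21.4 CPM. Vwf, the gene of von Willebrand factor, ranged from 9.27 to 18.5 CPM in knockout and from 10.2 to 15.8 CPM in wild type, so that the spread among libraries was far larger than the fold of 0.988.

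Of the 5 barrier transporter genes, 0 passed the test, and their log2 fold changes all lay above 0, between 0.0082 and 0.32, where 49.1% of all genes tested had one above 0. This direction did not hold throughout: without knockout replicates 3, 5 and 6 the values of Slc2a1, Mfsd2a, Abcg2 and Slc16a1 lay below 0 (-0.0011, -0.013, -0.077 and -0.073), and with the choroid plexus level as a covariate those of Mfsd2a, Abcg2 and Slc16a1 did. The summed CPM of the 5 genes was 262 ± 17.4 in knockout and 251 ± 16.0 in wild type (SD, n = 5 each), and the ranges overlapped. Knockout replicates 3, 5 and 6 held the highest of these sums in knockout, 262, 282 and 276 CPM, and the highest Slc16a1. Leaving them out lowers the sum and Slc16a1 by construction. Abcb1a (Entrez 18671), which encodes the drug efflux pump P-glycoprotein, had the smallest p of the members. It stood at 18.9, 22.8, 20.6, 22.2 and 18.8 CPM in knockout and at 17.1, 15.1, 15.0, 16.2 and 19.5 CPM in wild type. Knockout replicates 3, 5 and 6 lay above every wild-type library, and replicates 1 and 8 lay below wild-type replicate 7. The log2 fold change was 0.32 (SE 0.099, edgeR adjusted p = 0.242, exact permutation p = 0.0238), which is a fold of 1.24 (1.08 to 1.43). Without knockout replicates 3, 5 and 6, its 3 highest libraries, it was 0.18 (unadjusted p = 0.162), and with the choroid plexus level as a covariate 0.11 (unadjusted p = 0.508). Abcb1b, its close paralog, named after its values were seen, stood at 4.003 ± 0.970 CPM in knockout and 3.05 ± 0.387 CPM in wild type (SD, n = 5 each). How reads shared by the paralogs were assigned is not given in the sources used here.

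The window before the Abcb1a start is given beside that of Eng because it belongs to the member with the smallest p (chr5:8566841-8567090, plus strand, GRCm38.p6). These letters hold 0 matches to GGAAGT on either strand, so no letter is in capitals.
Abcb1a: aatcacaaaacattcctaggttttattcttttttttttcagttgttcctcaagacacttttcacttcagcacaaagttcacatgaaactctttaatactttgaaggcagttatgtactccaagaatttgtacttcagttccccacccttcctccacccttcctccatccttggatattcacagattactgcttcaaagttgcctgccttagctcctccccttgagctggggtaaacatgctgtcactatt

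The other four transporter genes lay within the spread. Slc2a1 encodes the glucose transporter GLUT1 of the barrier, which astrocytes make as well. It stood at 43.2, 38.9, 47.0, 43.8 and 41.0 CPM in knockout and 40.6, 36.9, 48.5, 42.3 and 42.6 CPM in wild type, a fold of 1.01 (0.914 to 1.12). Mfsd2a, which encodes the transporter of lysolipids that carry docosahexaenoic acid and which also restrains transcytosis, stood at 36.4, 33.8, 41.5, 44.9 and 38.6 CPM in knockout and 41.5, 34.7, 38.4, 37.6 and 37.3 CPM in wild type. Its genotypes were mixed, with a fold of 1.03 (0.924 to 1.15). Abcg2, the gene of the efflux pump BCRP, had a fold of 1.01 (0.873 to 1.16). Slc16a1, which encodes the lactate and ketone transporter MCT1 and has expression in glia too, had one of 1.04 (0.953 to 1.13) and the highest CPM of the endothelial members, 134 in knockout and 129 in wild type.

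Surface markers split into 1 precise gene and 3 of low level. Itm2a, a membrane protein gene that is enriched in brain endothelium, stood at 56.7 ± 7.64 CPM in knockout and 59.3 ± 2.21 CPM in wild type (SD, n = 5 each), with knockout replicates 1 and 3 the lowest and the highest of the 10 libraries at 45.2 and 66.4 CPM. Ly6c1 had a fold of 1.05 (0.865 to 1.28). Ly6a, the Sca-1 gene, ranged from 1.59 to 3.64 CPM in knockout and from 1.02 to 3.38 CPM in wild type. Emcn, which encodes a sialoglycoprotein of veins and capillaries, ranged from 1.90 to 4.67 CPM in knockout and from 1.44 to 3.41 CPM in wild type. Their log2 fold changes of 0.40 (SE 0.31) and 0.28 (SE 0.27) lay within 2 standard errors of 0. Ly6a and Ly6c1 belong to a family of similar genes, whose reads are hard to assign.

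Of the 5 endothelial transcription factor genes 0 passed the test. Foxq1 (forkhead box Q1), which is enriched in brain over other endothelium, had the lowest p of the group. It stood at 10.3, 10.2, 8.01, 10.5 and 7.60 CPM in knockout and at 13.3, 12.1, 12.96, 9.88 and 11.8 CPM in wild type. Wild-type replicate 6 lay inside the knockout range, and the other wild-type libraries lay above every knockout library. The log2 fold change was -0.36 (SE 0.13, edgeR adjusted p = 0.334, exact permutation p = 0.0317). Sox17 and Sox18, SoxF genes of arterial and vascular development, had log2 fold changes of 0.0050 (SE 0.16) and 0.070 (SE 0.14). The ETS factor genes Erg and Fli1, the second of which microglia express too, had values of -0.14 (SE 0.16) and 0.12 (SE 0.16).

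**Figure D3:**
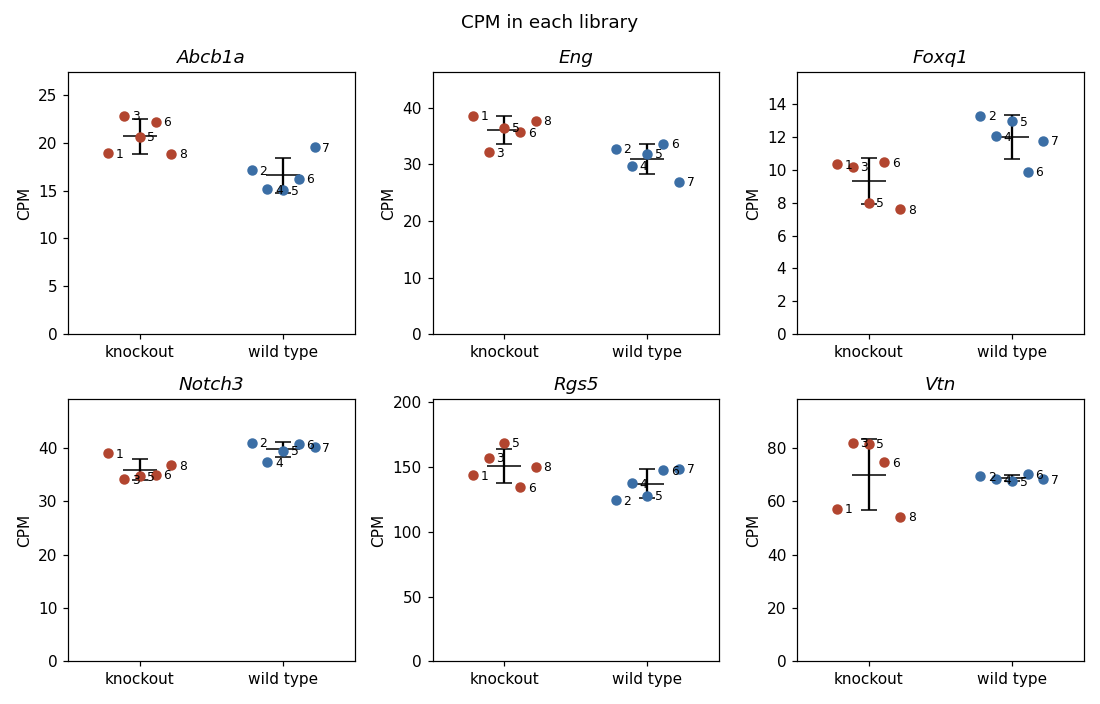
CPM in each library of the 5 members with an unadjusted p under 0.05 and of Vtn. Points are libraries with their replicate number, bars are the mean and SD of the genotype (n = 5), and each axis starts at 0. The ranges of the genotypes overlap in all of them, and for Vtn the knockout libraries run from 54.3 to 82.0 CPM around wild-type libraries at 67.7 to 70.2 CPM. The difference in spread of Vtn was not tested.

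Of the 7 pericyte genes, Rgs5 was higher and Notch3 lower in knockout by small amounts that did not pass the test. Rgs5, a regulator of G-protein signalling and a leading pericyte marker, stood at 144, 157, 169, 135 and 150 CPM in knockout and at 124, 138, 128, 148 and 149 CPM in wild type. Knockout replicates 3, 5 and 8 lay above every wild-type library, and wild-type replicates 2 and 5 lay below every knockout library. Its log2 fold change was 0.14 (SE 0.060, edgeR adjusted p = 0.491, exact permutation p = 0.119). Notch3, the Notch receptor of mural cells, stood at 39.1, 34.1, 34.7, 35.0 and 36.8 CPM in knockout and at 41.0, 37.4, 39.5, 40.7 and 40.2 CPM in wild type. Knockout replicate 1 lay inside the wild-type range and the other knockout libraries below it, with a log2 fold change of -0.15 (SE 0.067, edgeR adjusted p = 0.523, exact permutation p = 0.0159). Without knockout replicates 3, 5 and 6 the Notch3 value was -0.067 and with the choroid covariate -0.012. Those libraries hold the lowest Notch3 values, so leaving them out shrinks its fall by construction.

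Pdgfrb, the gene of the receptor for PDGF-B, differed little, at 32.5, 31.1, 36.2, 34.6 and 28.5 CPM in knockout and 29.4, 32.9, 30.7, 32.8 and 31.8 CPM in wild type, a fold of 1.03 (0.927 to 1.15). Kcnj8 and Abcc9 encode the channel pore and the sulfonylurea receptor subunit of the pericyte potassium channel gated by ATP. They had folds of 1.002 (0.735 to 1.36) and 0.978 (0.845 to 1.13). Anpep, which encodes aminopeptidase N, had one of 0.983 (0.799 to 1.21).

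Vtn had almost equal means and very unequal spread. It encodes vitronectin, a matrix protein that brain pericytes secrete. It stood at 57.3, 82.0, 81.6, 74.6 and 54.3 CPM in knockout and at 69.5, 68.3, 67.7, 70.2 and 68.3 CPM in wild type. Knockout replicates 3, 5 and 6 lay above every wild-type library and replicates 1 and 8 below them all. The SD was 13.3 CPM in knockout and 1.03 CPM in wild type, around means of 70.0 and 68.8 CPM. At wild-type counts of 1170 to 1562, random sampling of reads alone would spread libraries by more than this SD of 1.03 CPM. The contrast of the SDs therefore overstates any difference in spread. It was not tested, and Vtn was picked out of 38 members for it. The SD was larger in knockout for 23 of the 38 members and for 61.4% of all genes tested.

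Smooth muscle genes stood low and varied widely between libraries. Acta2, the smooth muscle actin gene, ranged most of all members, with 3.47, 2.87, 5.38, 8.90 and 9.22 CPM in knockout and 4.35, 10.5, 7.29, 10.96 and 5.997 CPM in wild type. Tagln, which encodes the actin-binding protein transgelin, stood at 2.93, 4.03, 3.49, 4.62 and 4.47 CPM in knockout and 3.77, 4.93, 4.05, 4.27 and 5.03 CPM in wild type. Myh11, the smooth muscle myosin heavy chain gene, stood at 2.39, 2.98, 4.04, 4.29 and 4.30 CPM in knockout and 3.51, 4.13, 3.70, 4.63 and 3.51 CPM in wild type. Knockout replicate 1 was the lowest of the 10 libraries for Tagln and Myh11, and knockout replicate 3 the lowest for Acta2. The log2 fold changes were -0.39 (SE 0.39), -0.17 (SE 0.19) and -0.12 (SE 0.20), each no larger than its standard error, and 0 of 3 passed. Their summed CPM was 13.5 ± 4.31 in knockout and 16.1 ± 3.51 in wild type (SD, n = 5 each).

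The window before the Acta2 start is shown because smooth muscle genes are known for CArG boxes, the sites of serum response factor. Capitals mark CC and GG around 6 bases of which at least 5 are A or T, a motif that reads alike on both strands (RefSeq, GRCm38.p6, chr19:34255374-34255623, minus strand, written in the direction of the gene).
Acta2: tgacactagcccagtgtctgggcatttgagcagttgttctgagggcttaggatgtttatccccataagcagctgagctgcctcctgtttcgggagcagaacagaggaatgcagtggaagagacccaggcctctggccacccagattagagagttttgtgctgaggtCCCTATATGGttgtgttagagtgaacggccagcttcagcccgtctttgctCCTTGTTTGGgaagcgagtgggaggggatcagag
These 250 bases hold 2 matches, and 8.59% of all windows hold at least 1, as do 5 of the 33 windows of members, among them that of Eng. No windows were at hand for Tagln and Myh11.

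**Figure D4:**
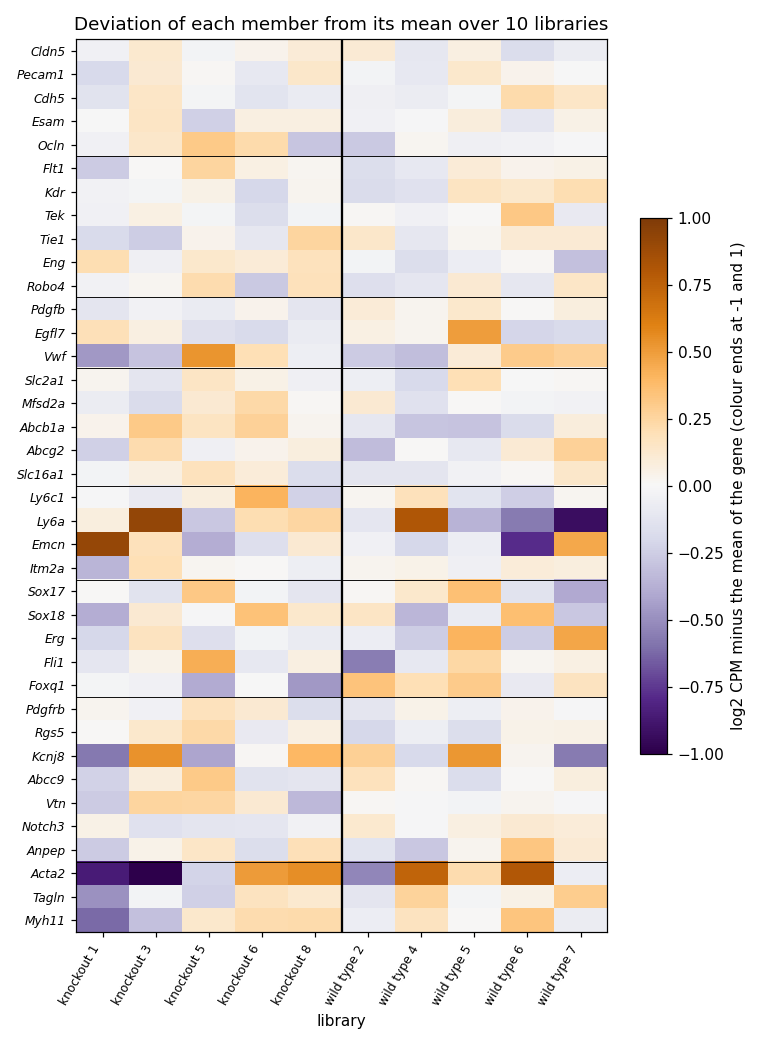
Deviation of each member (rows, ordered by role) from its mean log2 CPM over the 10 libraries (columns, knockout left of wild type). Colours end at -1 and 1; the lowest value, -1.13, is Acta2 in knockout replicate 3 and the highest, 0.915, is Ly6a in the same library. High and low values occur in both genotypes in nearly every row.

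The highest and lowest values of the members fell in libraries of both genotypes. Knockout replicate 1 was the lowest library for 11 of the 38 members and the highest for 2. Knockout replicate 5 was the highest for 9 and the lowest for 1, and knockout replicate 3 the highest for 7. Among wild-type libraries replicate 6 was the highest for 6 members and the lowest for 5. Wild-type replicate 4, with the lowest endothelial sum at 703 CPM, was the lowest library for only 2 members. The same counts were not made over all genes tested, so they do not set the members apart from other genes.

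Sums of marker genes of neighbouring cell types also differed between single libraries. The 14 genes of perivascular and meningeal fibroblasts, led by Igf2, summed to 487, 700, 760, 720 and 546 CPM in knockout and to 633, 633, 620, 686 and 646 CPM in wild type. Knockout replicates 1 and 8, the low libraries of Vtn, were the lowest here too. The 13 microglia and macrophage genes, led by Csf1r, summed to 232, 323, 286, 310 and 266 CPM in knockout and to between 253 and 285 CPM in wild type. Choroid plexus genes (10 listed, led by Ttr and Enpp2) summed to 345, 112, 112, 114 and 192 CPM in knockout and to between 338 and 428 CPM in wild type, with knockout replicates 3, 5 and 6 the lowest. The part of these tissues in the values of Vtn, Abcb1a and the smooth muscle genes was not tested.

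Blood cell genes were summed as well. Where in the tissue their RNA came from was not tested. The 8 erythroid genes, led by the alpha-globin gene Hba-a1, summed to 393, 421, 421, 386 and 692 CPM in knockout and to 611, 683, 603, 557 and 483 CPM in wild type. All knockout libraries but replicate 8 lay below every wild-type library, while the endothelial sums of the genotypes were mixed. Of the 5 tested erythroid genes 0 passed, with Alas2, an enzyme gene of red cell heme, at a log2 fold change of -0.63 (SE 0.22, edgeR adjusted p = 0.304). The red cell genes Slc4a1 and Epb42 were at or near 0, with a mean of at most 0.0792 CPM in knockout and 0.426 CPM in wild type. Platelet genes were also near 0, with 4.31 to 6.84 CPM in knockout and 4.88 to 7.51 CPM in wild type for the sum of 7 genes. Platelets also carry Vwf and Pecam1 RNA. Globin genes are near-identical copies, and their single values are uncertain.

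**Figure D5:**
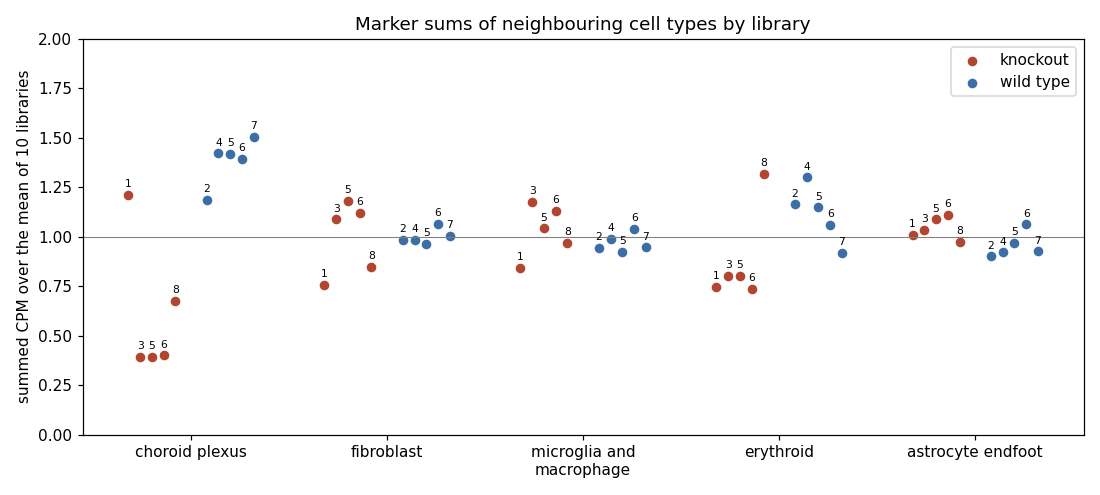
Summed CPM of marker genes of neighbouring cell types in each library, divided by the mean of the 10 libraries. Points carry the replicate number, and knockout stands left of wild type for each cell type. Knockout replicates 3, 5 and 6 are low for choroid plexus, replicates 1 and 8 are low for fibroblasts, and replicate 8 alone of the knockout libraries is high for erythroid genes.

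Wider lists of vessel-related genes were examined as well. In 7 further lists, of barrier transport, junctions and caveolae, Wnt signalling of the barrier, VEGF and angiopoietin signalling, Notch, TGF-beta and sphingosine signalling, mural cells and basement membrane, 133 of 135 genes were tested and 0 passed. An unadjusted p under 0.05 was found for 12 (9.02%, against 8.71% of all genes tested), 7 higher and 5 lower, and the median log2 fold change was -0.015. Some of these genes stood far above the vessel markers, such as Sparcl1 at 1401 CPM and Spock2 at 790 CPM in knockout, against 69.9 CPM for Cldn5. Whole cortex does not show which cells their RNA came from, so these lists describe vessels only in part.

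For each list the genes with the smallest p are given, with their log2 fold change. Of 20 barrier transport genes these were Slco1c1, which encodes a thyroid hormone transporter (0.14, SE 0.053), and the insulin receptor gene Insr (-0.17, SE 0.065). Slco1c1 stood at 132, 158, 131, 145 and 136 CPM in knockout and at 125, 131, 123, 130 and 128 CPM in wild type, and was the 1 gene of the 133 whose genotypes did not overlap (background 0.923% for higher in knockout). In the junction and caveola list they were Cav2, a caveolin gene (0.15, SE 0.077), and the polarity gene Pard3 (0.17, SE 0.10). Brain endothelium receives Wnt7a and Wnt7b from neural cells through the co-receptor Adgra2 and Reck; in this list of 20 the smallest p belonged to the receptor gene Tnfrsf19 (0.19, SE 0.052, edgeR adjusted p = 0.134) and to the nuclear receptor gene Ppard (0.24, SE 0.098).

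In the VEGF and angiopoietin list a ligand and its receptor came first. The log2 fold change was 0.29 for the semaphorin gene Sema3e (SE 0.091) and -0.28 for Plxnd1, its receptor gene (SE 0.097). Neurons express both. In the Notch, TGF-beta and sphingosine list S1pr1, which encodes a sphingosine phosphate receptor of endothelium and astrocytes, had 0.18 (SE 0.060). Heyl, an effector gene of Notch signalling, stood at 6.28, 6.73, 6.12, 6.85 and 9.17 CPM in knockout and at 9.33, 8.74, 9.08, 10.02 and 9.35 CPM in wild type, with all knockout libraries but replicate 8 below every wild-type library (log2 fold change -0.40, SE 0.14, edgeR adjusted p = 0.305). Among other mural genes Pde5a, the gene of a cGMP phosphodiesterase, had -0.36 (SE 0.12) and Higd1b 0.52 (SE 0.32). Among basement membrane genes the laminin gene Lama4 had 0.19 (SE 0.088) and the nidogen gene Nid2 -0.20 (SE 0.099).

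Astrocyte endfeet wrap the vessels from outside. Of 10 endfoot genes 0 passed, with Kcnj10, the gene of the potassium channel Kir4.1, at 0.18 (SE 0.048, edgeR adjusted p = 0.0985) and the glutamate transporter gene Slc1a2 at 0.17 (SE 0.054, adjusted p = 0.277). Kcnj10 passed with DESeq2 (adjusted p = 0.0351) and with no filter on low counts (edgeR adjusted p = 0.0469), and Slc1a2 with no filter (edgeR adjusted p = 0.0244) and without wild-type replicate 6 (edgeR adjusted p = 0.0176). Kcnj10 stood at 203, 209, 206, 221 and 221 CPM in knockout and at 172, 183, 187, 198 and 193 CPM in wild type, with every knockout library above every wild-type library. The endfoot list summed to 3210 ± 172 CPM in knockout and 2941 ± 198 CPM in wild type (SD, n = 5 each).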

How the data were processed

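The 10 libraries, 5 knockout and 5 wild type, were grouped by their titles. The authors deposited whole-number counts per Entrez gene. Per the submitters' processing notes the tools were HISAT2 and featureCounts and the build was mm39. Which annotation and strand setting were used, and how reads from several loci were counted, the sources used here do not give, so overlapping and antisense genes cannot be told apart. Symbols came from a RefSeq table (GRCm38.p6) that matched 30648 of 30935 identifiers. Exon lengths for CPM per kb were taken from GENCODE M21 (GRCm38) and covered all 38 members. Nothing says that libraries came from separate litters, so p-values measure the spread between these libraries.

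The fit used edgeR 4.0.16 in R 4.3.3: filterByExpr, TMM factors, robust dispersions and the two-sided quasi-likelihood F test for genotype, with no covariate and Benjamini-Hochberg adjustment over 15488 genes and a threshold of 0.05. Fold changes are knockout over wild type, and each standard error is the log2 fold change divided by the root of F. The code of the fit was tried on simulated counts with changes larger than those of the members. That trial does not bear on smaller changes. Libraries of a genotype differed from each other by more than sampling noise (chi-square per degree of freedom 4.10 to 13.9), so each counted as 1 replicate. Alternatives were other scalings and filters, DESeq2 1.42.0, limma-voom (limma 3.58.1), non-robust dispersions, a threshold of 0.1, a replicate block, a covariate for choroid plexus level or for sex, and fits without single libraries or without knockout replicates 3, 5 and 6. Sex was assigned from the counts, by whether the X inactivation transcript exceeded a Y-linked gene, which gave 3 female and 2 male libraries in knockout and 4 female and 1 male in wild type. The call of wild-type replicate 2 as female is less clear. Its sex-linked genes had a mean log2 CPM of 0.157, against -0.660 to -0.597 in the other libraries called female. Members, lists and the choice of knockout replicates 3, 5 and 6 were made with earlier results of these data known. Of each further list the genes past the threshold, or otherwise the 2 with the smallest p, are named. Promoter windows are the 250 bases before a RefSeq start. Figures were drawn with matplotlib 3.10.9.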

Additional observations from a re-analysis of the deposited data

Results flagged for a closer look

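Within a genotype, 1 library sometimes stood far from the remaining 4, by Dixon's criterion for an extreme value at 95%. That was so for 4 of the 82 sets of 5 values examined, and about 1 set in 20 is picked out by chance. Knockout replicate 5 was far above the other knockout libraries for the transcription factor genes Sox17, at 8.56 CPM, and Fli1, at 8.74 CPM. Wild-type replicate 6 was far above the other wild-type libraries for the angiopoietin receptor gene Tek, at 22.1 CPM. Wild-type replicate 2 was far below the others for occludin (Ocln), at 8.49 CPM.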

How the results depend on the processing

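In the edgeR, DESeq2 and limma-voom fits tried, 0 of the 38 members passed the test, and the lowest adjusted p was 0.0939, of Abcb1a without knockout replicate 8. 16 of the 38 members kept their sign in all of them. The count over all genes was 59 and moved to 171 with no filter, 124 with DESeq2, 108 at an adjusted p under 0.1, 28 with the sex covariate, 12 without knockout replicates 3, 5 and 6, 0 with the choroid covariate (759 at an unadjusted edgeR p under 0.05), and 15 to 182 when single libraries were left out: 15, 21 and 17 without wild-type replicates 2, 4 and 5, and 17, 37 and 182 without knockout replicates 3, 6 and 8. Numbers 5 and 6 occur in both genotypes, and deviations of same-numbered libraries did not go together (correlations -0.0303 and -0.0566), and nothing in the labels says what a number marks, so the numbers were not taken to pair the libraries. With the replicate block, which leaves 1 residual degree of freedom, 27 genes and 0 members passed, and sign changes were Esam -0.066, Robo4 -0.032, Vwf 0.16, Abcg2 -0.012, Kcnj8 -0.46, Abcc9 0.17 and Myh11 0.0027. The endothelial median moved to -0.054 without knockout replicates 3, 5 and 6 and to -0.066 with the choroid covariate, the mural median to -0.25 with that covariate, the endothelial ratio of sums to 0.967 without those libraries, and the mural ratio to 0.945 from mean log2 CPM. The choroid plexus level did not overlap between the genotypes, so the fit with that covariate separates it poorly from genotype. The causes were not tested.

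Some log2 fold changes changed sign, most of them from values near 0, but Ocln, Pard3, Ppard, S1pr1 and Lama4 from 0.15, 0.17, 0.24, 0.18 and 0.19. Without knockout replicates 3, 5 and 6 they were Ocln -0.091, Flt1 -0.10, Egfl7 0.0073, Slc2a1 -0.0011, Mfsd2a -0.013, Abcg2 -0.077, Slc16a1 -0.073, Ly6c1 -0.090, Sox17 -0.066, Sox18 -0.089, Pdgfrb -0.045, Kcnj8 -0.058 and Vtn -0.30. With the choroid covariate they were Pard3 -0.061, Ppard -0.030, S1pr1 -0.0021, Lama4 -0.047, Ocln -0.14, Flt1 -0.19, Egfl7 0.038, Mfsd2a -0.0039, Abcg2 -0.18, Slc16a1 -0.098, Ly6c1 -0.060, Sox17 -0.071, Sox18 -0.27, Fli1 -0.029, Pdgfrb -0.031, Kcnj8 -0.41 and Vtn -0.47. With the sex covariate they were Esam -0.0057, Abcg2 -0.040 and Vtn -0.016. Upper quartile factors gave Sox17 -0.0022 and Kcnj8 -0.0045, and at least 50 counts in 5 libraries gave Kcnj8 -0.00071. With single libraries left out, the ranges that crossed 0 were Pecam1 -0.043 to 0.036, Vwf -0.17 to 0.083, Itm2a -0.13 to 0.0074, Abcc9 -0.12 to 0.020, Anpep -0.090 to 0.068, Esam -0.014 to 0.080, Abcg2 -0.064 to 0.087, Kcnj8 -0.15 to 0.14, Vtn -0.038 to 0.11, Flt1 -0.025 to 0.099, Slc2a1 -0.023 to 0.076, Sox17 -0.079 to 0.11, Mfsd2a -0.013 to 0.092, Ly6c1 -0.035 to 0.14, Sox18 -0.011 to 0.19 and Egfl7 -0.14 to 0.052. Of the named genes outside the members, Tnfrsf19, Plxnd1, Kcnj10 and Slc1a2 passed with no filter, Kcnj10 with DESeq2, and Slc1a2 without wild-type replicate 6. Clic6, Tmem72, Six3 and Penk did not pass without knockout replicates 3, 5 and 6 (2 knockout libraries left, log2 fold changes -1.06, -0.94, -1.97 and -1.04) or with the choroid covariate (-0.32, -0.47, -1.74 and -0.96). These 3 libraries are the highest knockout libraries for Vtn, Ocln, Abcb1a, Slc16a1 and the endothelial and barrier transporter sums. Leaving them out lowers those values by construction. They are the lowest libraries for Notch3, whose fall shrinks without them by construction. They also hold the least choroid plexus RNA, and Clic6 and Tmem72 are among the genes that make up the choroid covariate. Both fits thus shrink the falls of choroid plexus genes by construction. Vtn had an unadjusted edgeR p under 0.05 in both fits, and 0 members passed after adjustment. Penk was lost without knockout replicate 3, and Tmem72 without that library or wild-type replicate 4 or 5. Depth limits Ly6a, Emcn, Tagln and Myh11, each under 5 CPM.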
